A study of Homo sapiens with 12 samples.

Results

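Of the 60230 lines of the deposited count table, 243 were abundant, at least 2-fold higher with zotatifin in normoxia, and changed less than 2-fold by hypoxia in vehicle cells. A line is 1 measured feature of the table. Levels are in CPM, which are counts scaled to a library total of 1000000. The lines had a mean of at least 16 CPM over all 12 libraries, a mean in normoxia zotatifin at least 2 times that in normoxia vehicle, and a mean in hypoxia vehicle above 0.5 and below 2 times that in normoxia vehicle. They made up 2.77% of the 8760 lines with at least 16 CPM. The measured values of normoxia vehicle, normoxia zotatifin and hypoxia vehicle therefore chose the lines, and those ratios are given below as descriptions without tests. The comparison that did not choose them is zotatifin against vehicle in hypoxia. It shares no library with the normoxia ratio, although hypoxia vehicle entered through the limits on hypoxia and all 12 libraries entered through the abundance limit.

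The table has no names for its lines, so no line could be tied to a gene, and nothing below says which genes these are. Zotatifin inhibits eIF4A, the RNA helicase of the cap-binding complex eIF4F. This helicase opens structure in the leader of a messenger RNA so that the small ribosomal subunit can scan to the start codon. Inhibitors of this kind hold the helicase on purine-rich stretches of RNA and lower the translation of many messages. An RNA count does not measure translation. It gives the share of the RNA pool that a feature holds, which depends on synthesis, decay and the rest of the pool. Hypoxia is known to alter both transcription, through hypoxia-inducible factors, and the rate of protein synthesis.

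RNA came from 22Rv1, an established cell line grown from a human prostate tumour, in which the androgen receptor is expressed. The 12 libraries formed 4 groups of 3: vehicle in normoxia, zotatifin at 10 nM for 24 hours in normoxia, vehicle in hypoxia at 1% oxygen, and the same zotatifin treatment in hypoxia. The untreated arm is called vehicle in the titles and has no agent in the treatment tag, and its solvent is not stated in what was used here. Each oxygen condition was 1 set of cultures of 1 cell line, so oxygen cannot be told apart from any other difference between the sets. The titles call the replicates biological, while the growth protocol speaks of triplicate seeding in a multiwell plate. The 3 libraries of a group may therefore be parallel wells of the same cells, and no source used here names separate cultures or days for them. Every n of 3, SD and p-value thus measures only the spread between such samples, which may be technical. In bulk RNA, fewer cells carrying a transcript and less transcript per cell cannot be told apart. With no line names, the markers of the cell line could not be checked.

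Library totals ran from 10.4 to 16.5 M estimated counts (M stands for mega) and were 11.2 ± 0.914 M in hypoxia vehicle and 13.5 ± 2.70 M in hypoxia zotatifin (SD, n = 3); the part of depth in the results was not tested. Normoxia vehicle replicate 1 stood apart from its group by its scaling factor for the trimmed mean of M values (TMM), 0.932, where the other 11 libraries had 0.977 to 1.05. The lowest estimated count of any of the 243 in any library was 42, and the median over lines of their lowest count was 307. The filter on low counts kept 17993 lines of the table and all 243 of these. Mean abundance over the 12 libraries ran from 16.3 to 837 CPM, with a median of 53.9 CPM. The ratio that chose them, zotatifin over vehicle in normoxia, had a median of 2.30 and a highest value of 7.80. In 160 of the 243 lines it was under 2.5, in 38 it was 3 or more and in 15 it was 4 or more. The ratio of hypoxia to normoxia in vehicle cells had a median of 1.08 and ran from 0.566 to 1.92.

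The limits cut through a continuous range. The line nearest the abundance limit on the inside had 16.3 CPM and the nearest outside had 15.99 CPM. At the limit on zotatifin in normoxia, the nearest line inside had a ratio of 2.002 and the nearest outside 1.997. In hypoxia the drug ratio of CPM was 1.96 in the former and 1.87 in the latter, so both lines were alike in size. Under the upper limit on hypoxia, the nearest line inside had a ratio of 1.92 and the nearest outside 2.04. Over the lower limit these were 0.566 inside and 0.462 outside. The drug ratio in hypoxia was 2.27 inside and 1.41 outside the upper limit, and 4.48 inside and 3.96 outside the lower. At the abundance limit it was 2.47 inside and 1.71 outside, where the line inside passed only through hypoxia zotatifin. Each of these values is from 1 line, and no test was made on them.

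As a whole the 243 lines took up a larger share of the RNA counts with zotatifin in both oxygen conditions. In hypoxia they held 1.53%, 1.49% and 1.46% of all counts in vehicle replicates 1, 2 and 3, and 3.94%, 3.87% and 3.86% in zotatifin replicates 1, 2 and 3. The means were 1.49% ± 0.0364 and 3.89% ± 0.0473 (SD, n = 3 libraries each), a ratio of 2.60, and the arms did not overlap. In normoxia, where the ratio was chosen to be high, the share was 1.33%, 1.46% and 1.498% with vehicle and 3.44%, 3.42% and 3.62% with zotatifin. Normoxia vehicle replicate 1 was the lowest of the 12 libraries. The 10 most abundant of the 243 lines held 22.8% of the sum in hypoxia vehicle and 26.4% in hypoxia zotatifin. The median line stood at 31.2 ± 1.09 CPM in hypoxia vehicle and 82.7 ± 1.05 CPM in hypoxia zotatifin (SD, n = 3). No test was made on these sums, because the lines were chosen by their values.

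**Figure D1:**
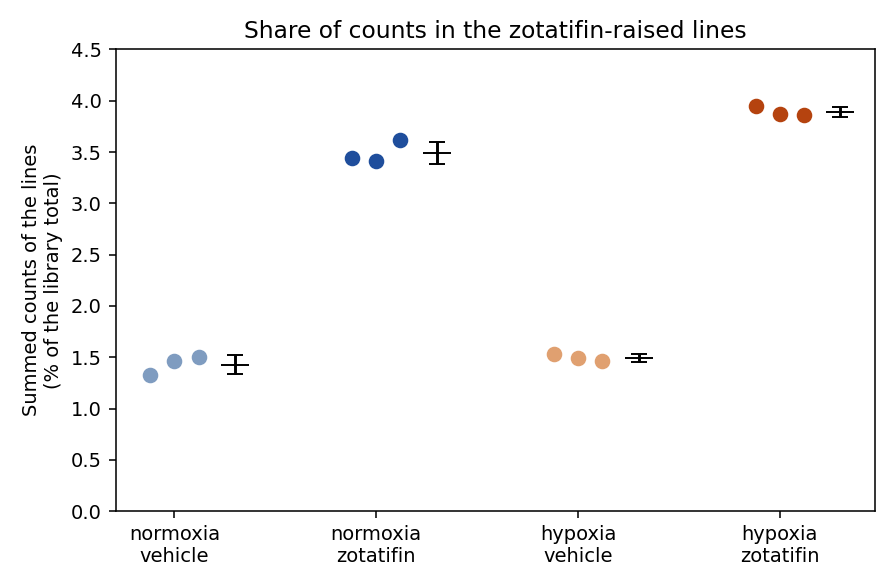
Summed counts of the 243 lines as a percent of each library's total (y axis) in the 4 groups (x axis); points are libraries in the order of replicates 1 to 3, and the bar to their right is the mean with SD (n = 3). The 3 hypoxia zotatifin libraries lie between 3.86% and 3.94%, and the 6 vehicle libraries between 1.33% and 1.53%.

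The comparison of zotatifin with vehicle in hypoxia asks whether the lines that were higher with the drug at normal oxygen were also higher at 1% oxygen. Of the 243 lines, 239 rose with zotatifin in hypoxia and 0 fell (edgeR quasi-likelihood test, adjusted p under 0.05). Over all 17993 lines tested, 27.7% were called higher and 27% lower. Among the 8534 lines with the same abundance and hypoxia limits but no condition on zotatifin, which include the 243, 37.4% were called higher. At an unadjusted p under 0.05, 240 of the 243 were higher and 0 lower. DESeq2 and limma-voom each called 239 higher and 0 lower as well. Without normoxia vehicle replicate 1 in the fit, 241 of the 243 were called higher. Of the 243 lines, 20 reached the abundance limit only through hypoxia zotatifin, the group in which they were high, so that a rise was built into their choice. With abundance taken over the 9 other libraries, a rule set after the values were seen, 223 lines remained and 219 of them rose. The 4 lines not called had positive fold changes and are described below.

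The changes in hypoxia were mostly over 2-fold. In hypoxia 196 of the 243 lines were called and at least 2-fold higher, against 6.84% of all tested lines and 4.68% of those within the abundance and hypoxia limits. At 4-fold there were 20, against 1.07% of all tested lines. The log2 fold change had a median of 1.31, with a middle range of 1.05 to 1.62 between the quartiles and extremes of 0.14 and 3.83. Over all tested lines the median was -0.01. In the 223 lines abundant without hypoxia zotatifin the median was 1.30, with 179 lines at 2-fold and 14 at 4-fold. The median standard error of the 243 log2 fold changes was 0.07. The 3 hypoxia zotatifin libraries lay above the 3 hypoxia vehicle libraries in 241 lines, where 30.5% of all tested lines did so. In 159 of the 243 lines even the lowest zotatifin library was at least 2 times the highest vehicle library, against 3.63% of all tested lines and 3.12% of those within the abundance and hypoxia limits. Of the 223 lines abundant without hypoxia zotatifin, 143 did so. In 240 lines the 6 zotatifin libraries of both oxygen conditions lay above all 6 vehicle libraries, against 15.9% of all tested lines and 23.9% of those within the limits. The rule used the normoxia libraries, so nothing is read from this last count.

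**Figure D2:**
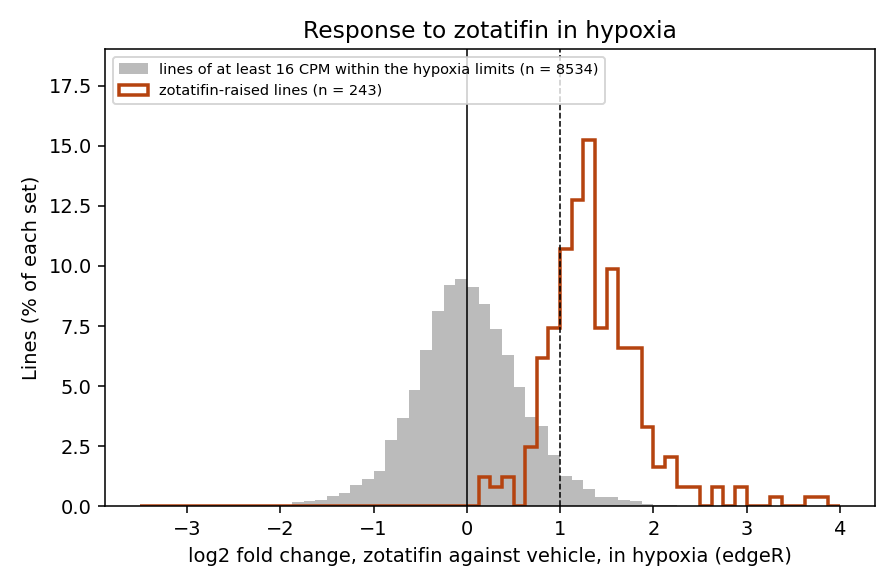
Distribution of the edgeR log2 fold change of zotatifin against vehicle in hypoxia (x axis) as a percent of each set of lines (y axis); grey bars are the 8534 lines within the abundance and hypoxia limits, which include the 243, and the outline is the 243 zotatifin-raised lines. The solid and dashed vertical lines mark no change and 2-fold; the outline has its median at 1.31 and lies wholly above 0, while the grey bars have their median at 0.00.

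Line 10347 had the largest rise with zotatifin in hypoxia. It stood at 11.03, 8.97 and 9.35 CPM in the 3 hypoxia vehicle libraries and 149.7, 130.4 and 141 CPM in the 3 hypoxia zotatifin libraries. It was lower in normoxia, at 8.73, 6.84 and 5.46 CPM with vehicle and 52.8, 45.5 and 51.5 CPM with zotatifin. The drug arms were far apart in both oxygen conditions, and the hypoxia zotatifin libraries were the highest of the 12. In hypoxia its means were 9.78 ± 1.10 and 140.3 ± 9.64 CPM (SD, n = 3; edgeR log2 fold change 3.83 with SE 0.12, adjusted p = 5.42e-15).

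Line 14318 was both the next largest riser and the second most abundant of the 243 lines. Its levels were 154, 148 and 144 CPM in the 3 hypoxia vehicle libraries and 1972, 1767 and 1838 CPM in the 3 hypoxia zotatifin libraries. Normoxia libraries had 217, 248 and 291 CPM with vehicle and 910.4, 886 and 935 CPM with zotatifin. Vehicle cells therefore had less of this line in hypoxia than in normoxia, while zotatifin cells had more. The drug ratio of means was 12.5 in hypoxia and 3.61 in normoxia (edgeR log2 fold change 3.65 with SE 0.08, adjusted p = 1.69e-12 in hypoxia). Leaving this line out lowered the ratio of the summed shares in hypoxia from 2.60 to 2.504.

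The other leading risers differed in how oxygen entered. The third had 11.3, 8.97 and 8.97 CPM in the 3 hypoxia vehicle libraries and 99.1, 98.6 and 104 CPM in the 3 hypoxia zotatifin libraries (edgeR log2 fold change 3.36 with SE 0.07, adjusted p = 3.91e-26). Its normoxia means were 15.9 ± 0.695 and 122 ± 1.67 CPM (SD, n = 3), so that both hypoxia means were below their normoxia counterparts. The fourth had 47.4, 49.7 and 44.2 CPM in the 3 hypoxia vehicle libraries and 369.8, 356 and 340.3 CPM in the 3 hypoxia zotatifin libraries (edgeR log2 fold change 2.92 with SE 0.05, adjusted p = 3.10e-28), against 35.6 ± 2.62 and 184 ± 8.11 CPM in normoxia, so that both hypoxia means were above. The fifth went from 9.68 ± 0.976 to 72.4 ± 1.58 CPM in hypoxia (SD, n = 3; edgeR log2 fold change 2.90 with SE 0.10, adjusted p = 6.18e-22) and was likewise higher in hypoxia in both arms. The sixth went from 10.7 ± 1.57 to 68.5 ± 2.14 CPM (edgeR log2 fold change 2.68 with SE 0.08, adjusted p = 1.74e-22) and was lower in hypoxia in both arms, with 17.8 ± 1.78 and 128.2 ± 3.40 CPM in normoxia. A large drug response was thus present in lines that hypoxia placed higher and in lines it placed lower.

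The eighth of the 10 largest risers went from 18.0 ± 0.545 to 101 ± 2.71 CPM in hypoxia (SD, n = 3; edgeR log2 fold change 2.49 with SE 0.08, adjusted p = 1.47e-22). The seventh, the ninth and the last of the 10 reached the abundance limit only through hypoxia zotatifin. Their mean levels were 20.9, 17.0 and 17.3 CPM over all libraries and 15.8, 12.1 and 11.5 CPM without that group. Their drug ratios in hypoxia, 6.34, 5.23 and 5.04, are therefore descriptions, with no test. The ninth was at 6.05, 6.86 and 5.44 CPM in the 3 hypoxia vehicle libraries and 35.3, 31.97 and 28.6 CPM in the 3 hypoxia zotatifin libraries, and it had 20.8, 22.2 and 23.2 CPM in the normoxia zotatifin libraries. The 10 were taken from the lines without overlap between the arms in hypoxia, so their separation is part of how they were picked.

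**Figure D3:**
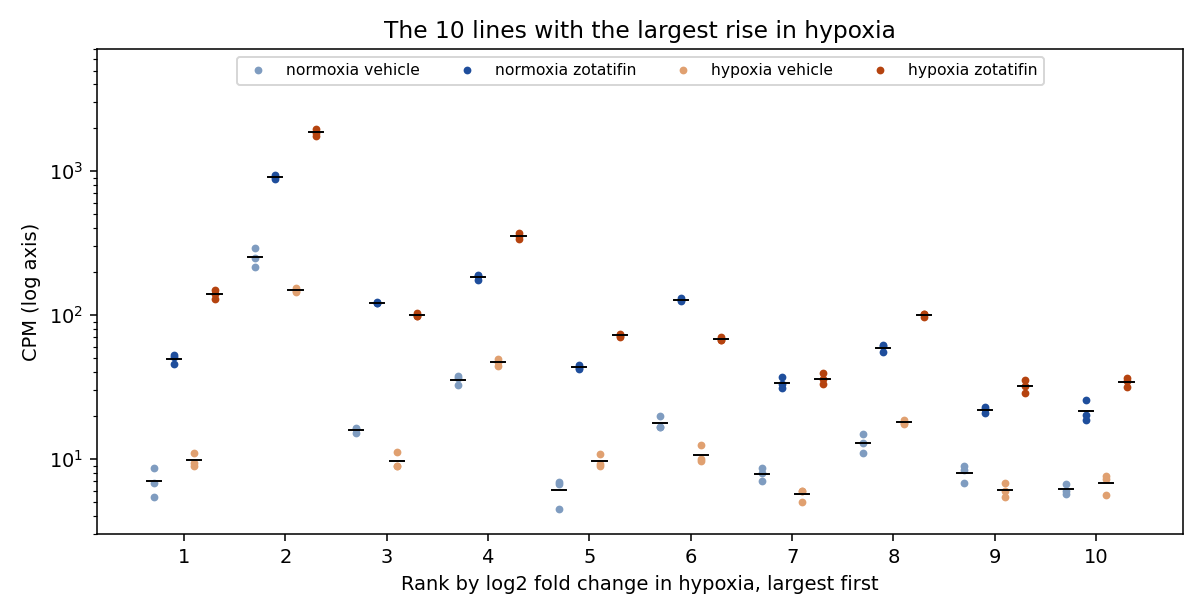
CPM in each library (y axis, log scale) for the 10 zotatifin-raised lines with the largest log2 fold change in hypoxia, in rank order (x axis); points are libraries coloured by group and short bars are group means (n = 3). Rank 1 is line 10347, with hypoxia means of 9.78 and 140.3 CPM, and rank 2 is line 14318, with 148 and 1859 CPM; in all 10 the zotatifin points lie above the vehicle points of the same oxygen condition.

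The most abundant of the 243 lines had a modest response in hypoxia. It stood at 654, 685 and 628 CPM in the 3 hypoxia vehicle libraries and 1008, 1024 and 1026 CPM in the 3 hypoxia zotatifin libraries (edgeR log2 fold change 0.64 with SE 0.04, adjusted p = 7.12e-15). In normoxia it had 492, 547 and 526 CPM with vehicle and 1091, 1144 and 1216 CPM with zotatifin. Vehicle cells had more of it in hypoxia and zotatifin cells had less, which is the reverse of line 14318, and its rank by fold change in hypoxia was 234 of 243.

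The next most abundant lines responded by 2-fold or more in hypoxia. The line ranked 3 in abundance had 464, 441 and 436 CPM in the 3 hypoxia vehicle libraries and 1356, 1212 and 1252 CPM in the 3 hypoxia zotatifin libraries (edgeR log2 fold change 1.51 with SE 0.04, adjusted p = 6.18e-24). The line ranked 4 in abundance had 467, 447 and 439 CPM in the 3 hypoxia vehicle libraries and 1014, 1016 and 975 CPM in the 3 hypoxia zotatifin libraries (edgeR log2 fold change 1.15 with SE 0.04, adjusted p = 2.86e-21). The fifth most abundant had 287, 292 and 296 CPM in the 3 hypoxia vehicle libraries and 945, 941 and 938 CPM in the 3 hypoxia zotatifin libraries (edgeR log2 fold change 1.69 with SE 0.04, adjusted p = 1.97e-25). All 3 kept the arms apart by a wide margin, and their vehicle levels differed little between oxygen conditions, with ratios of hypoxia to normoxia of 1.06, 1.07 and 0.863.

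The sixth and seventh most abundant lines went from 372 ± 5.01 to 899 ± 14.3 CPM and from 288 ± 7.96 to 883 ± 34.0 CPM with zotatifin in hypoxia (SD, n = 3), log2 fold changes of 1.27 and 1.62. The eighth most abundant had vehicle levels that were close between oxygen conditions, at 191, 205 and 221 CPM in normoxia and 204, 206 and 212 CPM in hypoxia. With zotatifin it reached 842, 816 and 845 CPM in normoxia and 1001, 957 and 968 CPM in hypoxia (edgeR log2 fold change 2.23 with SE 0.04, adjusted p = 1.74e-27 in hypoxia). Its vehicle libraries overlapped between oxygen conditions, while its zotatifin libraries were all above all of its vehicle libraries.

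At the other end, 8 of the 243 lines had a drug ratio under 1.5 in hypoxia, and 4 lines were not called. The line with the smallest change had 30.8, 29.2 and 28.6 CPM in the 3 hypoxia vehicle libraries and 30.1, 33.8 and 34.2 CPM in the 3 hypoxia zotatifin libraries, and these overlapped (edgeR log2 fold change 0.14 with SE 0.07, adjusted p = 0.116). In normoxia its arms were well apart, at 22.5, 26.1 and 25.5 CPM with vehicle and 54.1, 55.4 and 54.6 CPM with zotatifin. The next had 13.8, 11.7 and 16.2 CPM in the 3 hypoxia vehicle libraries and 14.7, 16.5 and 15.1 CPM in the 3 hypoxia zotatifin libraries, again overlapping (edgeR log2 fold change 0.15 with SE 0.19, adjusted p = 0.541). Its log2 fold change was 0.05 without hypoxia vehicle replicate 2 (adjusted p = 0.871), 0.10 without hypoxia zotatifin replicate 2 and 0.29 without hypoxia vehicle replicate 3 (adjusted p = 0.261). Its normoxia vehicle libraries were uneven, at 9.93, 16.9 and 18.6 CPM, and replicate 1 was the lowest. The third was at 25.7, 28.2 and 28.8 CPM in the 3 hypoxia vehicle libraries and 31.3, 31.5 and 31.1 CPM in the 3 hypoxia zotatifin libraries, which did not overlap (edgeR log2 fold change 0.18 with SE 0.08, adjusted p = 0.0537). Without hypoxia vehicle replicate 3 its adjusted p was 0.0327, and without normoxia vehicle replicate 1 or 2 it was 0.0382 or 0.0489. Without hypoxia vehicle replicate 1 its log2 fold change was 0.11 and its adjusted p 0.308. For the line with the smallest change, the adjusted p was 0.037 without hypoxia zotatifin replicate 1.

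The other line without a call had 16.4, 17.3 and 11.1 CPM in the 3 hypoxia vehicle libraries and 23.7, 20.2 and 17.5 CPM in the 3 hypoxia zotatifin libraries (edgeR log2 fold change 0.46 with SE 0.27, adjusted p = 0.194). The arms did not overlap in hypoxia, and the standard error is from a fit over all 12 libraries, in which normoxia vehicle replicate 1 had 5.19 CPM against 12.6 and 10.8 CPM in the others of its group. Without that library the adjusted p was 0.00987, and in a fit of the 6 hypoxia libraries alone it was 0.0127. Without hypoxia vehicle replicate 3 its log2 fold change was 0.30 (adjusted p = 0.431), and without hypoxia zotatifin replicate 1 it was 0.34 (adjusted p = 0.417). The line ranked 4 from the end was called, from 23.1 ± 3.30 to 29.4 ± 2.68 CPM (SD, n = 3; edgeR log2 fold change 0.35 with SE 0.10, adjusted p = 0.00419), but not without hypoxia vehicle replicate 1, where the log2 fold change was 0.21 (adjusted p = 0.0819). The fifth from the end was abundant and precise, with 152, 147 and 139 CPM in the 3 hypoxia vehicle libraries and 193, 191 and 185 CPM in the 3 hypoxia zotatifin libraries (edgeR log2 fold change 0.37 with SE 0.05, adjusted p = 1.00e-07). It was at 293, 273 and 292 CPM in normoxia zotatifin, above every hypoxia library. The seventh and eighth from the end had log2 fold changes of 0.48 and 0.49 and were called.

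**Figure D4:**
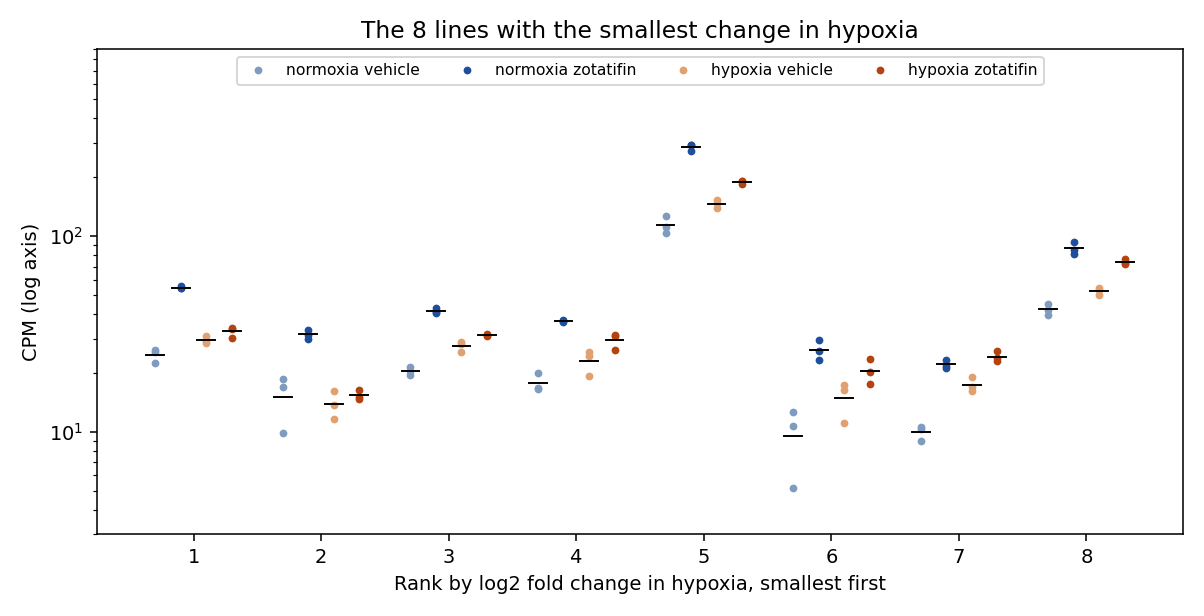
CPM in each library (y axis, log scale) for the 8 zotatifin-raised lines with the smallest log2 fold change in hypoxia, smallest first (x axis); points are libraries coloured by group and short bars are group means (n = 3). Hypoxia vehicle and hypoxia zotatifin points overlap at ranks 1 and 2, with means of 29.5 and 32.7 CPM and of 13.9 and 15.4 CPM, and are apart at the other 6.

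Set side by side, the drug effects in the 2 oxygen conditions were of like size in most of the lines. The difference of log2 fold changes, hypoxia minus normoxia, had a median of 0.09 and lay within 0.5 in 197 lines. It was above 0.5 in 28 lines and below -0.5 in 18. The hypoxia value was the larger in 151 lines after TMM scaling, and in 137 by the ratio of CPM. These counts include the 20 lines that passed the abundance limit only through hypoxia zotatifin, which were not counted apart here. The normoxia value chose the lines, so these differences are descriptions and no test of them is given. Across the 243 lines, Pearson's r between the log2 ratios of CPM in normoxia and hypoxia was 0.682 and Spearman's rho 0.535. The lines share the same 12 libraries and their range in normoxia was restricted by the rule, so the correlation describes these lines only.

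**Figure D5:**
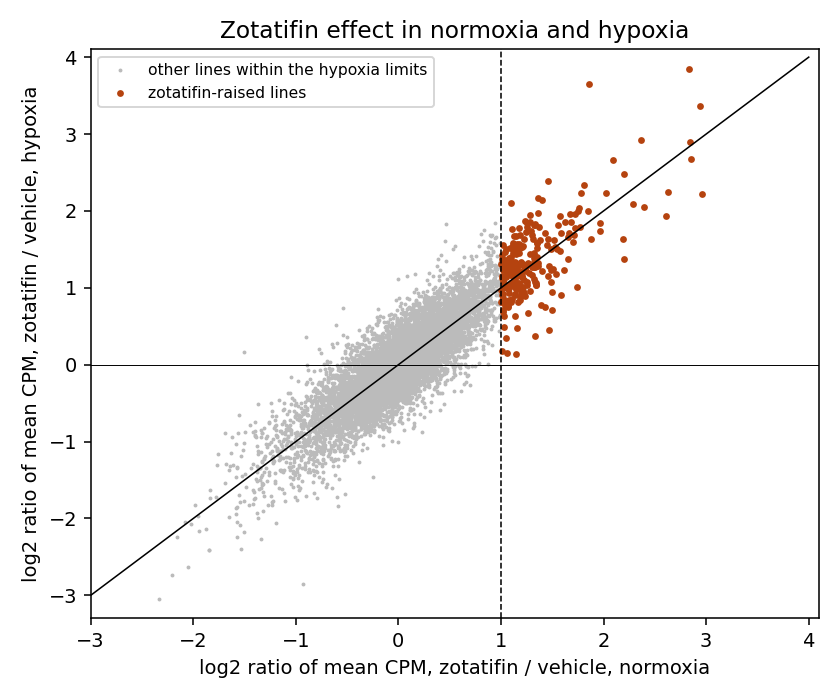
Log2 ratio of mean CPM of zotatifin over vehicle in normoxia (x axis) and in hypoxia (y axis); each point is a line within the abundance and hypoxia limits, the 243 zotatifin-raised lines in red, the dashed line the 2-fold limit of the rule and the diagonal equal ratios. Of the 243 lines, 137 lie above the diagonal and 106 below, and none lies below 0 on the y axis.

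Line 14318 had the most positive difference, at 1.83 on the log2 scale, and line 10347 followed at 1.05. The next line had 16.8, 16.1 and 18.0 CPM in normoxia vehicle and 35.8, 34.6 and 38.4 CPM in normoxia zotatifin. In hypoxia it had 20.3, 18.3 and 16.03 CPM with vehicle and 73.6, 77.7 and 83.1 CPM with zotatifin. Its vehicle levels overlapped between oxygen conditions, and its zotatifin levels were apart, giving a difference of 1.04. The fourth was the ninth-ranked riser given above, with 0.98. The 4 most negative differences, from -0.97 to -0.87, all belonged to lines among the 8 with the smallest change in hypoxia.

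Lines with the highest drug ratio in normoxia also had high ratios in hypoxia. The highest, at 7.80, belonged to a scarce line with 2.58, 3.52 and 4.01 CPM in normoxia vehicle and 26.7, 25.4 and 26.7 CPM in normoxia zotatifin. Its hypoxia levels were 7.11, 6.41 and 5.82 CPM with vehicle and 28.1, 29.5 and 32.1 CPM with zotatifin, a ratio of 4.64. It had 12.03 CPM without hypoxia zotatifin and passed the abundance limit through that group, so this ratio is a description, with no test. Its vehicle level was higher in hypoxia, by a ratio of 1.91, and its zotatifin level was nearly equal, by 1.14. The next 4 by this ratio were among the 6 largest risers in hypoxia. Of the 15 lines with a normoxia ratio of 4 or more, 14 had a hypoxia ratio of 3 or more, and their median in hypoxia was 4.76. Without those that were under 16 CPM outside hypoxia zotatifin, these were 11 of 12, with a median of 5.18. Of the 68 lines from 2.5 to 4, 34 reached 3 in hypoxia, with a median of 3.01. Of the 160 lines under 2.5, 16 did, with a median of 2.32. Both of these classes hold lines that passed the abundance limit only through hypoxia zotatifin, and 151 of the 160 were abundant without it. A hypoxia ratio of 3 or more was present in 64 of the 243 lines and in 55 of the 223 abundant without hypoxia zotatifin. It was present in 77 of the 8534 lines within the abundance and hypoxia limits and in 472 of all 17993 tested lines.

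The response in hypoxia was spread over the range of abundance. From 16 to 32 CPM, 74 of 77 lines rose, with a median log2 fold change of 1.31. This range holds all 20 lines that passed through hypoxia zotatifin, and without them 54 of 57 rose, with a median of 1.28. From 32 to 100 CPM, 97 of 98 rose, with a median of 1.34, and at 100 CPM or more all 68 rose, with a median of 1.28. In the same 3 ranges, 33.3%, 39.3% and 39.2% of the lines within the abundance and hypoxia limits were called higher.

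Lines that stood lower in hypoxia vehicle cells had the larger ratios with the drug in hypoxia. The 26 lines with a hypoxia ratio in vehicle cells under 0.8 had a median drug ratio of 3.14 in hypoxia and 2.48 in normoxia. Without those that were under 16 CPM outside hypoxia zotatifin, 24 lines remained, with medians of 3.06 and 2.44. For the 135 lines from 0.8 to 1.2 these medians were 2.47 and 2.26, and for the 82 lines over 1.2 they were 2.27 and 2.34. Hypoxia vehicle is in both ratios, as numerator of the first and denominator of the second, so this order is a description only. All 26 of the first set, 133 of the second and 80 of the last were called higher. Of the lines within the abundance and hypoxia limits 37.4% were called higher, and of all tested lines 27.7%. The counts of the 3 sets include the 20 lines that passed the abundance limit only through hypoxia zotatifin. Of the 24 lines of the first set without them, 24 were called higher.

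Across the 4 groups, hypoxia zotatifin had the highest mean in 169 lines and normoxia zotatifin in the other 74. The lowest mean was in normoxia vehicle in 155 lines and in hypoxia vehicle in 88. The rule placed normoxia zotatifin above both vehicle means in every line. A vehicle group could therefore not be highest, and normoxia zotatifin could not be lowest. These counts include the 20 lines that passed the abundance limit only through hypoxia zotatifin, and they are descriptions, with no test. Within zotatifin cells the ratio of hypoxia to normoxia ran from 0.455 to 2.81 with a median of 1.11. The highest was line 10347, and line 14318 had 2.04. The median was 1.10 in the 223 lines abundant without hypoxia zotatifin and 0.984 in the 8534 lines within the abundance and hypoxia limits. The rule limited this oxygen ratio in vehicle cells only.

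The spread between replicates can be set beside that of other abundant lines. The median coefficient of variation was 6.17% in hypoxia vehicle, 3.65% in hypoxia zotatifin and 4.62% in normoxia zotatifin. Over all lines of at least 16 CPM these medians were 5.204%, 4.56% and 4.76%. In normoxia vehicle it was 8.79% against 6.13%, and this group holds replicate 1, the library with the lowest sum. Without that library in the rule 225 lines were chosen, 214 of them among the 243, and 222 of the 225 rose in hypoxia.

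Values that are not whole arise where a method divides reads between similar features. Among the 243 lines, 38 (15.6%) had whole values in all 12 libraries to within 0.0005, against 8.06% of the lines of at least 16 CPM. All 38 of them rose in hypoxia, with a median log2 fold change of 1.61, and the median was 1.28 in the other lines. Of the 38, 31 were abundant without hypoxia zotatifin, and all of these rose, with a median of 1.54. No test of this difference was made. Of all tested lines 27.7% were called higher, and of those within the abundance and hypoxia limits 37.4%. The share among all lines with whole values was not examined. Any part of the division of reads in the rise was not tested.

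By Pearson's r of log2 CPM over the 12 libraries, the lines most like line 10347 among the other 8759 lines of at least 16 CPM were both among the 243. The nearest (r = 0.995) was more abundant, with 125 ± 5.22 CPM in hypoxia vehicle and 321 ± 11.8 CPM in hypoxia zotatifin (SD, n = 3). The next (r = 0.995) had 11.1 ± 1.11 and 45.3 ± 1.85 CPM. Both rose less in size, by ratios of 2.57 and 4.09 against 14.3. The second of them passed the abundance limit only through hypoxia zotatifin, so its ratio is a description, with no test.

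Lines at the mirror limits, with a zotatifin ratio in normoxia of 0.5 or less, numbered 249. In hypoxia 247 of them fell and 0 rose. Of all tested lines 27% were called lower, and of those within the abundance and hypoxia limits 36.5%. Called and at least 2-fold lower were 164, against 5.69% of all tested lines and 334 of the 8534 lines within the limits. The median log2 fold change of the 249 lines in hypoxia was -1.20, beside 1.31 in the 243 zotatifin-raised lines. The limits on hypoxia left out 22 abundant lines raised by zotatifin in normoxia, 20 of them with a hypoxia ratio in vehicle cells of 2 or more. Of those 20, 18 were called higher with zotatifin in hypoxia, with a median log2 fold change of 1.09 and a lowest value of -1.39, which was not called. Of all tested lines 27.7% were called higher, and of the lines of at least 16 CPM 37.4%. How many of the 20 reached the abundance limit only through hypoxia zotatifin was not examined. No test of a difference between these sets was made.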

How the data were processed

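The deposited table holds estimated counts per line in 12 columns, 1 per library. The authors' processing is known only from the submitters' processing notes, which name Salmon, DESeq, DESeq2 and hg38 without versions, roles or order; the annotation used is not stated there. Columns were matched to samples by title. Counts were rounded, filtered with filterByExpr by group (minimum count 10, minimum total 15) and scaled by TMM. The main test was edgeR's robust quasi-likelihood test (edgeR 4.0.16, R 4.3.3), with 1 mean per group over 12 libraries, two-sided, Benjamini-Hochberg over 17993 lines, threshold 0.05. Each line had 8 residual degrees of freedom and a median of 22.6 prior ones, and the common biological coefficient of variation was 6.11%. Standard errors came from the fold change and its F statistic. The script was tested on simulated data. Levels are CPM of the library total, and fold changes are TMM-scaled.

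The members and the rules were chosen with earlier results of these data known. Lines described singly were the 10 largest and 8 smallest changes in hypoxia, the 8 most abundant, the 5 highest normoxia ratios, the 4 most positive and 4 most negative differences, the lines nearest each limit and the 2 most like the first riser. The abundance and ratio classes and the comparison of whole values were chosen after values were seen. Likeness used log2(TMM-scaled CPM + 1). Line numbers count data lines, and 2 are printed. Alternatives were relative log expression and upper quartile scaling, no filter, DESeq2 1.42.0, limma 3.58.1, a replicate block, the hypoxia libraries alone, each library left out and other limits.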

Additional observations from a re-analysis of the deposited data

How the results depend on the processing

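With the 243 lines kept, 239 were called higher in hypoxia under relative log expression scaling, upper quartile scaling, no filter, DESeq2, limma-voom and the replicate block, all 239 being the same lines in each, and 240 in the 6 hypoxia libraries alone. Leaving out each library gave 238 to 241, and 0 lines were called lower in every setting. The median log2 fold change was 1.27 under upper quartile scaling and ran over 1.29 to 1.32 when single libraries were omitted. With 1 library left out of the choice of lines, 225 to 266 lines were chosen, 222 to 262 of them called higher, with a median of 1.28 to 1.33. With TMM-scaled CPM 220 lines were chosen and 217 called higher, and with an abundance limit of 32 CPM 166 and 165. With a normoxia ratio of at least 3, 38 lines were chosen and 38 called higher, with a median of 1.96. With a hypoxia ratio above 0.8 and below its inverse, 152 were chosen and 150 called higher. The summed share in hypoxia zotatifin was 3.81% after TMM scaling and 3.89% before, and in hypoxia vehicle 1.46% and 1.49%. No pairing by replicate number was seen. Deviations of same-numbered libraries correlated at -0.131 to 0.0520 over 18 pairs, and those of other numbers at -0.0815 to 0.146 over 36. Of the 12 libraries, 3 correlated best with their own number. With 3 libraries per group, these values cannot exclude that libraries of the same number were handled together. The block left the count of calls at 239. For 27 lines described singly, each refitted under 19 alternatives, 506 fits kept the direction and the side of the threshold, 6 moved a line past it and 1 moved a line back under it, and the cause was not tested. The lines nearest the limits and those most like line 10347 were not refitted. With the abundance limit over the 9 libraries outside hypoxia zotatifin, chosen after seeing the data, 223 lines were chosen and 219 called higher, with a median of 1.30.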

Other observations

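The rule was anchored in normoxia, so lines that responded more in hypoxia can lie outside it. Of the 8534 lines within the abundance and hypoxia limits, 402 had a drug ratio of CPM of at least 2 in hypoxia. The overlap with the 243 lines was 196, which is 48.8% of the 402 lines and 80.7% of the 243. The abundance limit of both sets included hypoxia zotatifin. Of the 223 lines abundant without that group, 179 had such a ratio. The other 206 lines had a median drug ratio of 1.70 in normoxia, and 162 of them had 1.5 or more there. Their lowest normoxia ratio was 0.997. This set was examined after its values were seen and no test was made on it.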
